A study of Mus musculus with 2 samples.

Results

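The genes described here are 8 transcription factors that set or keep the identity of pancreatic islet endocrine cells: Pdx1, Nkx6-1, Mafa, Irx1, Irx2, Hhex, Pax6 and Isl1, out of 31053 genes listed. They are taken as a group for their known roles, and the rule that lists them uses no measured value. Their transcripts were counted in 4 classes of endocrine cell cut from the share of each cell's transcripts that a hormone takes. A cell was called β where Ins1 and Ins2 together took at least 30% of its unique molecular identifiers (UMIs, each a tag for 1 captured transcript), α where Gcg took at least 10%, δ where Sst took at least 3%, and PP (pancreatic polypeptide cell) where Ppy took at least 20%, with the other hormones below their limits. Hormone genes therefore define the classes and are not results, whereas none of the 8 factors was used to make them.

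Pancreatic islets hold several hormone-secreting cell types that arise from shared endocrine progenitors, and homeodomain and basic leucine zipper transcription factors keep them apart. Pdx1, Nkx6-1 and Mafa are known for binding to or acting on the insulin gene and for maintaining mature β cells, Irx1 and Irx2 are Iroquois homeodomain factors found in α cells, and Hhex is required to maintain δ cells. Pax6, a paired-domain and homeodomain factor, and Isl1, a LIM-homeodomain factor, are shared by all islet endocrine cells and act on hormone genes in each.

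Islet cells came from C57BL/6J mice aged 13 weeks, with 1 library for each of the diets CD and HFD. HFD stands for high-fat diet, and CD is left without a meaning in the labels. Both share the strain, the age and the preparation, in which islets were freed with collagenase P, separated on a gradient, picked by hand and dispersed with TrypLE before 10x Genomics droplet capture of transcript 3′ ends. How many mice were pooled for either library is not stated in the labels. With 1 library per diet there is no replicate check, no p-value is given, and every difference describes these libraries and not the diets.

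After filtering, the CD library held 9667 cells, of which 6515 were β, 1272 α, 570 δ and 328 PP, and the HFD library held 12062 cells, of which 7433 were β, 2005 α, 662 δ and 535 PP. The libraries shared 26 cell barcodes. Median depth was lower in HFD in every class, from 24050 against 26671 UMIs in β cells to 4781 against 6442 in δ cells, and the median mitochondrial share was higher, from 3.38% against 1.97% in PP cells to 5.40% against 3.23% in δ cells. Markers other than the class-defining hormones and the 8 members were highest in their own class in both libraries. The 4 α markers left summed to 33005 counts per 1000000 (CPM) of the class total in CD α cells and 968.0 in CD β cells, and the 3 δ markers left to 3760 in CD δ cells and 759.3 or less in the other CD classes. The 3 PP markers left were shared more widely, at 109168 in CD PP cells and 46435 and 46739 in CD α and δ cells. Among non-endocrine markers, the 6 ductal markers had the highest sums in every class of both libraries, from 155.3 CPM in HFD β cells to 595.1 in CD PP cells, carried mainly by Krt8, Krt18 and, in PP cells, Spp1. The defining ductal gene Krt19 was under 1 CPM in every class and Cftr had at most 2 UMIs per class and library. The 6 endothelial markers summed to between 10.9 and 129.4 CPM, and the 6 acinar markers to between 6.87 and 177.6 CPM. Haemoglobin transcripts stood apart in 1 class, at 305.3 CPM in HFD α cells against 4.45 in CD α cells, and their part in any result was not tested.

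Of the 8 genes, 6 had an entry in the RefSeq table of promoters for the mouse build GRCm38.p6. The stretch upstream of the annotated start is shown for 3 of them, which stand for the class patterns described below: Pdx1, high in β and δ cells (chr5:147269847-147269958), Irx2, high in α cells (chr13:72628570-72628819), and Hhex, high in δ cells (chr19:37434591-37434809). All are on the plus strand, written 5′ to 3′, and capitals mark a match to the CCAAT box read on either strand (CCAAT or ATTGG).
Pdx1: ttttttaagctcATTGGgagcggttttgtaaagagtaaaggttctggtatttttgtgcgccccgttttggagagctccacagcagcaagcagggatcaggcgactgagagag
Irx2: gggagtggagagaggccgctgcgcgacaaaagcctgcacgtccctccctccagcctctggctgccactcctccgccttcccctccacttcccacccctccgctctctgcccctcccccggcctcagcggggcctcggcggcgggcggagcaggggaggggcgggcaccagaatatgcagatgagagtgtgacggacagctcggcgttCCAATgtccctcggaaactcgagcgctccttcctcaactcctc
Hhex: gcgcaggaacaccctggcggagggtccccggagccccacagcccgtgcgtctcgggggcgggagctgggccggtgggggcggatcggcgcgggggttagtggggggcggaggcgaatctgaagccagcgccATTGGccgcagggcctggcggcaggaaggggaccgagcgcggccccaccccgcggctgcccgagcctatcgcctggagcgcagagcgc

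Each stretch held 1 CCAAT match. Among 32851 promoters cut to the same length just before their RefSeq start, 20.4% held a CCAAT match at the 112 bases shown for Pdx1, 33.8% at the 250 bases of Irx2 and 31.1% at the 219 bases of Hhex. The homeodomain core TAAT, the E-box CACGTG and the TATA box TATAAA, each searched on both strands, had no match in any of the 3 stretches. TAAT was present in 29.9% to 54.9% of promoters of those lengths. In the GENCODE annotation of GRCm38, Irx1 (13:71957921-71963723, minus strand) and Irx2 (13:72628820-72634198, plus strand) lie on the same chromosome with 665096 base pairs between them. The other members lie at 5:147269959-147275848 (Pdx1), 5:101658139-101664996 (Nkx6-1), 15:75745490-75748228 (Mafa, a single exon), 19:37434810-37440731 (Hhex), 2:105668900-105697364 (Pax6) and 13:116298281-116309689 (Isl1).

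The first comparison asked in which endocrine class each factor was highest. Mafa and Nkx6-1 were highest in β cells, Irx1 and Irx2 in α cells and Hhex in δ cells, each at least 2-fold above every other class in both libraries. That pattern held for 4.33% of 14470 genes in β cells, 0.905% in α cells, 2.49% in δ cells and 0.387% in PP cells, where no member led. Pdx1 was shared by β and δ cells, and Pax6 and Isl1 were present in all 4 classes. Levels below are CPM after TMM scaling (trimmed mean of M-values, which adjusts for the large share of UMIs that hormones take), and intervals are exact 95% intervals that cover counting error only.

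Among the β-cell factors, Mafa, a basic leucine zipper activator of the insulin gene, was at 112.8 CPM in CD β cells (111.0 to 114.7) and 182.0 in HFD β cells (179.6 to 184.4). It was at 3.12 and 7.14 CPM in α cells, 5.36 and 7.85 in δ cells and 2.83 and 6.89 in PP cells, CD first. Mafa in β cells was thus 21.0-fold above δ cells in CD (interval 15.3 to 29.9) and 23.2-fold in HFD (17.3 to 31.9), whereas α and PP cells did not differ from each other beyond their counting intervals in either library.

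The low Mafa levels outside β cells were close to or below those in endothelial-like cells, which should lack the gene. Endothelial-like cells, 324 in CD and 506 in HFD with median depths of 4281 and 4159.5 UMIs, held Mafa at 11.6 and 12.2 CPM of their total, against 3.53 and 7.95 in α cells, 2.51 and 5.74 in PP cells and 8.79 and 13.2 in δ cells on the same scale. The HFD δ value lay within the endothelial-like interval of 8.32 to 17.4. Per 100000 insulin UMIs, Mafa was at 29.5 (24.6 to 35.1) in HFD α cells and 31.2 (22.7 to 42.0) in HFD δ cells, above the 17.9 of β cells and the 15.4 of barcodes that hold free RNA, though within the interval of HFD endothelial-like cells at 35.3 (24.0 to 50.1). In CD, endothelial-like cells held 41.5, against 13.8 in α cells, 19.9 in δ cells, 11.8 in β cells and 10.3 in barcodes that hold free RNA. Mafa in α, PP and δ cells was thus not above endothelial-like cells beyond counting error. For Mafa, this is called not separated from background in what follows. Whether these UMIs are background or expression was not tested.

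Nkx6-1, a homeodomain repressor of non-β programs, was at 164.6 CPM in CD β cells and 221.3 in HFD β cells. PP cells came next at 50.3 CPM (44.5 to 56.7) and 60.7 (54.3 to 67.7), followed by α cells at 18.3 and 20.8 and δ cells at 17.0 and 15.5. In CD the α and δ levels did not differ beyond counting error (1.08-fold, interval 0.866 to 1.35), and in HFD α was 1.34-fold above δ (1.06 to 1.71) with TMM scaling but below it by total counts (23.2 against 26.0 CPM).

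The PP level of Nkx6-1 was out of proportion to the insulin transcripts in the same cells. For every 100000 insulin UMIs there were 174.4 Nkx6-1 UMIs in CD PP cells and 169.3 in HFD PP cells, against 17.3 and 21.7 in β cells and 12.6 and 17.6 in barcodes with 10 to 100 UMIs, which hold free RNA and no cell. α cells held 81.2 and 86.0 and δ cells 62.9 and 61.8. Endothelial-like cells held 21.8 and 29.6, so the ratio in PP, α and δ cells was above that of β cells, of free RNA and of endothelial-like cells. Macrophage-like cells held 31.7 (11.6 to 68.9) and 43.4 (25.3 to 69.5), and these intervals hold the δ ratios. Ductal-like cells held 51.5 in CD and 145.1 in HFD, the latter above the α and δ ratios. Mafa in PP cells was near the β-cell ratio, at 9.80 (5.48 to 16.2) and 19.2 (13.5 to 26.5) per 100000 insulin UMIs against 11.8 and 17.9 in β cells.

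**Figure D1:**
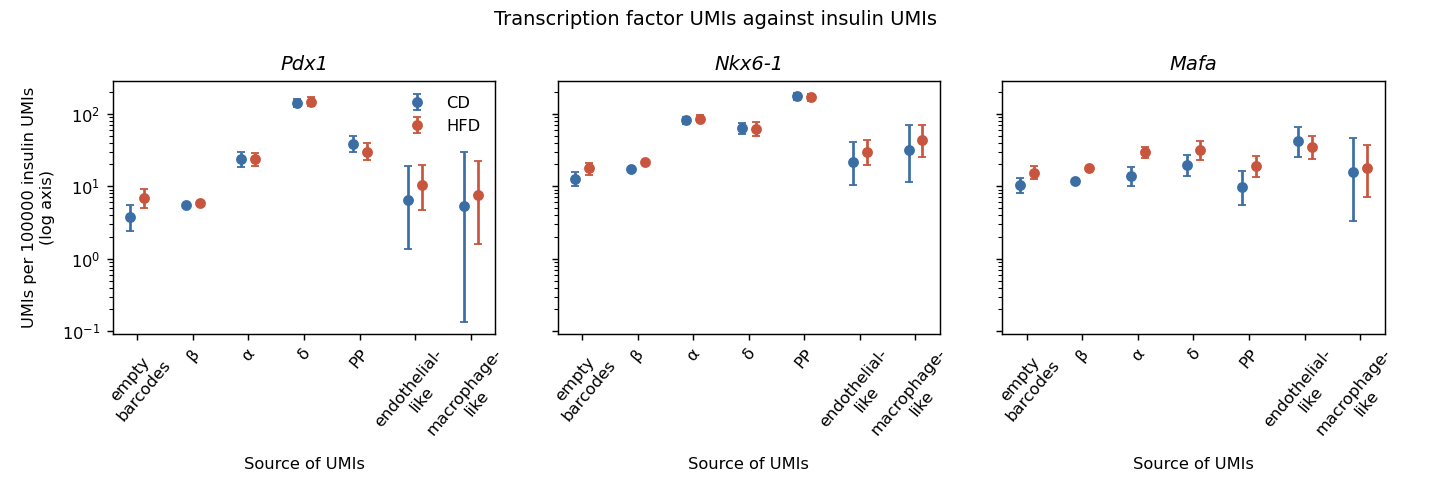
UMIs of Pdx1, Nkx6-1 and Mafa per 100000 insulin (Ins1 and Ins2) UMIs on a log axis, for empty barcodes, the 4 hormone classes and 2 non-endocrine groups, in the CD (blue) and HFD (red) library, with exact 95% counting intervals as bars. Nkx6-1 stands at 174.4 and 169.3 in PP cells against 17.3 and 21.7 in β cells, and Pdx1 at 141.4 and 147.7 in δ cells against 5.56 and 5.83 in β cells, while Mafa in PP cells stays near its β-cell ratio.

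Pdx1, the homeodomain factor needed for pancreas formation and for insulin gene activity, was at 53.0 CPM in CD β cells (51.7 to 54.2) and 59.3 in HFD β cells (58.0 to 60.7). δ cells held 38.1 (33.7 to 43.0) and 37.1 (32.3 to 42.5), PP cells 11.1 and 10.8, and α cells 5.29 and 5.73. β cells were above δ cells by 1.39-fold in CD and 1.60-fold in HFD with TMM scaling, but this order turned with scaling by total counts, where β minus δ was -0.88 on the log2 scale in CD and -0.78 in HFD. In both libraries δ cells were 3.43-fold and 3.44-fold above PP cells, and PP cells 2.10-fold and 1.88-fold above α cells, with intervals above 1.

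Per 100000 insulin UMIs, Pdx1 reached 141.4 and 147.7 in δ cells against 5.56 and 5.83 in β cells and 3.73 and 6.93 in empty barcodes. PP cells held 38.5 and 30.1 and α cells 23.5 and 23.7, both above the β-cell ratio. Endothelial-like cells held 6.55 and 10.3. Macrophage-like cells held 5.28 (0.134 to 29.4) and 7.66 (1.58 to 22.4), and the CD interval holds the α ratio. Ductal-like cells held 44.6 and 87.0, above the PP and α ratios. By total counts Pdx1 in CD α cells (5.99 CPM) lay above the endothelial-like interval of 0.377 to 5.34. In HFD α cells (6.39 CPM) it lay within that interval, 1.62 to 6.75.

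Irx1 was at 75.3 CPM in CD α cells (70.9 to 79.8) and 70.8 in HFD α cells (67.0 to 74.9), and Irx2 at 85.6 (80.9 to 90.4) and 87.1 (82.8 to 91.6). PP cells came second for both genes, with Irx1 at 6.41 and 7.64 CPM and Irx2 at 18.5 and 16.4. The α level of Irx1 was 11.7-fold above PP cells in CD (8.36 to 17.1) and 9.27-fold in HFD (6.80 to 13.0). For Irx2 the same step was smaller, 4.63-fold (3.77 to 5.75) and 5.31-fold (4.29 to 6.67). Other Iroquois genes were scarcely seen, with 14 UMIs of Irx3, 1 of Irx5 and 0 of Irx4 and Irx6 over the 8 class and library sums.

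Irx2 in PP cells was also in excess of the glucagon transcripts there. There were 141.3 Irx2 UMIs per 100000 Gcg UMIs in CD PP cells (114.7 to 172.1) and 121.1 in HFD PP cells (97.1 to 149.2), against 35.5 and 42.6 in α cells and 33.6 and 67.9 in empty barcodes. δ cells held 223.1 (157.9 to 306.2) and 197.6 (127.9 to 291.8), from 38 and 25 UMIs. For Irx1 in PP cells the ratios of 49.0 (33.9 to 68.5) and 56.4 (40.5 to 76.5) stood above the α ratios of 31.2 and 34.6, yet within the intervals of the empty barcodes at 37.8 (17.3 to 71.8) and 47.9 (24.8 to 83.7).

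In β cells Irx1 stood at 1.08 CPM in CD and 2.13 in HFD, and Irx2 at 1.87 and 3.05. On the scale of total counts these were 0.694 and 1.30 for Irx1, at or under the 1.83 and 1.58 of endothelial-like cells, and 1.20 and 1.86 for Irx2, beside 0 UMIs in CD endothelial-like cells, where 3 counts would be 1.83 CPM, and 1.97 CPM in HFD. Per 100000 Gcg UMIs, Irx2 in β cells was at 55.1 (48.4 to 62.5) in CD and 67.4 (60.7 to 74.6) in HFD. These ratios were above the 35.5 and 42.6 of α cells, yet within the empty-barcode intervals of 14.5 to 66.3 and 39.5 to 108.7. Neither gene in β cells was separated from background. The 4 α markers left without Gcg and Irx2 summed to 968.0 CPM of the total in CD β cells and 1663 in HFD β cells, and their part in these values was not tested.

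Hhex was at 133.1 CPM in CD δ cells (124.6 to 142.0) and 136.2 in HFD δ cells (126.7 to 146.2). PP cells held 9.61 and 2.98, α cells 5.02 and 1.86, and β cells 3.62 and 3.40. The δ level was 13.8-fold above the next class, PP, in CD (10.4 to 18.7) and 40.03-fold above the next class, β, in HFD (35.5 to 45.2). Hhex was also found outside the endocrine classes, at 276.5 and 407.9 CPM of the total in ductal-like cells, from only 21 cells in CD and 49 in HFD, and at 40.8 and 34.3 CPM in endothelial-like cells. Ductal-like cells also carried Pdx1 at 34.2 and 30.3 CPM and Nkx6-1 at 39.5 and 50.5 CPM, whereas Mafa had 0 UMIs in them, where 3 counts would be 7.90 CPM in CD and 6.06 in HFD.

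Pax6 was at 177.3 and 219.4 CPM in β cells, 160.0 and 208.8 in δ cells, 129.7 and 148.5 in PP cells and 123.0 and 147.2 in α cells. The highest class was 1.44-fold above the lowest in CD and 1.49-fold in HFD, a spread of under 2-fold in both libraries that 49.0% of all genes shared. PP and α cells did not differ beyond counting error in either library. The place of β above δ cells (1.11-fold in CD, 1.05-fold in HFD with an interval of 0.991 to 1.11) turned with total counts, where β minus δ was -1.21 on the log2 scale in CD and -1.38 in HFD, and in HFD also with DESeq2 size factors (-0.05).

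Isl1 was highest in δ cells, at 276.9 CPM in CD and 279.7 in HFD, and lay between 136.6 and 175.0 CPM in the other 3 classes. δ cells were 1.58-fold above α cells in CD (1.49 to 1.68) and 1.66-fold in HFD (1.56 to 1.77). PP and β cells, at 149.3 and 140.4 CPM, did not differ beyond counting error in CD.

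**Figure D2:**
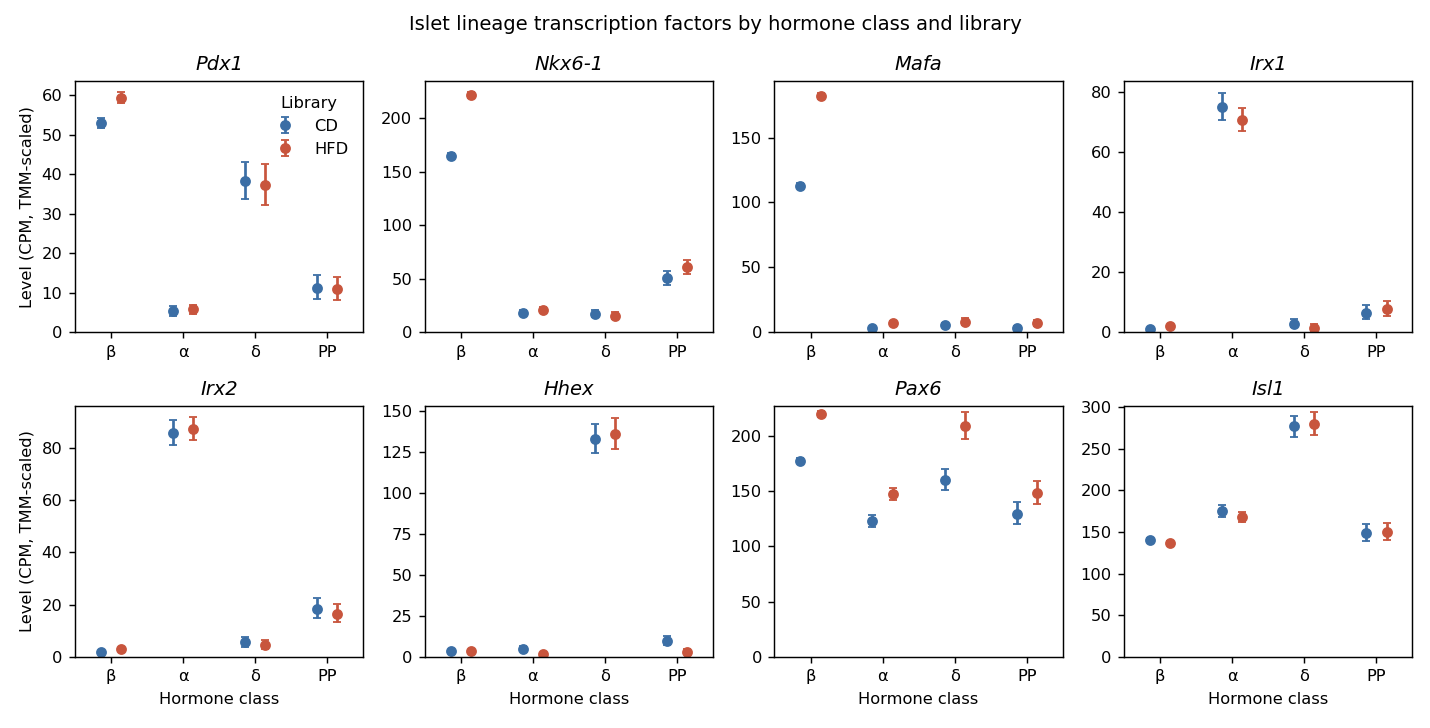
Level of each of the 8 transcription factors (TMM-scaled CPM, linear axis from 0) in β, α, δ and PP cells of the CD (blue) and HFD (red) library, with exact 95% counting intervals as bars, narrower than the points in some β sums. Mafa and Nkx6-1 peak in β cells, Irx1 and Irx2 in α cells and Hhex in δ cells, Pdx1 is high in β and δ cells, and Pax6 and Isl1 are present throughout.

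The second comparison set HFD against CD within each class. In β cells Mafa was 1.61-fold higher in HFD, a log2 ratio of 0.69 (0.66 to 0.72), with Nkx6-1 at 0.43 (0.40 to 0.45), Pax6 at 0.31 (0.28 to 0.33) and Pdx1 at 0.16 (0.12 to 0.21). Isl1 was nearly level at -0.04 (-0.07 to -0.01), and its sign turned to 0.01 with every cell counted alike. Irx1 at 0.98 and Irx2 at 0.71 were also past 1.5-fold, but neither was separated from background in β cells. By that rule 3 of 8 members were higher in β cells and 0 lower, where 9.19% of 13994 genes were higher, 5.25% lower and 14.4% either. Of the 3, Mafa alone was separated from background. The median log2 ratio of all 8 members, with Irx1 and Irx2 counted, was 0.37, beside 0.02 over all genes tested.

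The Mafa ratio in β cells ranged from 0.62 to 0.81 over 14 other ways of scaling, filtering or cutting the cells, and was 0.69 in cells with at least 8000 UMIs. That last choice was added because the CD library held shallow β cells, 812 cells with an insulin share of 40% to 50% and a median of 4097.5 UMIs, against 419 cells with a median of 19651 in HFD.

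Pax6 was the member that was higher in HFD in all 4 classes with an interval above 0. Its log2 ratio was 0.26 in α cells (0.17 to 0.35), 0.38 in δ cells (0.26 to 0.50) and 0.20 in PP cells (0.05 to 0.34), beside the 0.31 in β cells. None of these reached 1.5-fold. The median mitochondrial share was higher in the HFD library in all 4 classes as well. The Pax6 ratios kept their sign with mitochondrial limits of 10% and 25%. Every class median lay under both limits, so these cuts cannot set the share's part apart, and it was not tested.

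The transcript Pax6os1, which is annotated on the opposite strand and overlaps Pax6 by 1431 base pairs, went the other way in β cells. It was at 12.1 CPM in CD and 6.80 in HFD, which is -0.83 as a log2 ratio (-0.95 to -0.70), and no source used here gives the strand setting of the counting, so reads of the 2 genes could have been exchanged where they overlap. Plut, which overlaps Pdx1 by 1563 base pairs on the opposite strand, was at 13.95 and 18.3 CPM, or 0.39 as a log2 ratio (0.30 to 0.48). Both antisense genes were looked at after the values of their partners were seen.

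In α cells Irx1 and Irx2 had log2 ratios of -0.09 (-0.21 to 0.03) and 0.03 (-0.08 to 0.13), and Isl1 -0.06 (-0.13 to 0.02). By the 1.5-fold rule 1 of 8 members was higher (Mafa, 1.19, not separated from background) and 1 lower (Hhex, -1.44). Among 11098 genes 6.36% were higher, 3.45% lower and 9.81% either. Hhex in α cells rested on 74 UMIs in CD and 33 in HFD. Somatostatin UMIs in the same cells had a log2 ratio of -1.52. Per 100000 Sst UMIs, α cells held 381.9 Hhex UMIs in CD (299.9 to 479.5) and 405.8 in HFD (279.3 to 569.9). The δ cells held 224.3 and 213.0, and empty barcodes 650.1 and 464.3. The 3 δ markers other than Sst and Hhex summed to 759.3 and 745.7 CPM of the total in α cells. Ly6h, 1 of these markers, was nonetheless lower in HFD, at 6.71 and 2.81 CPM with TMM scaling. With tighter limits on the other hormones the Hhex ratio turned to 0.13, and the part of δ transcripts in these values was not tested.

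In δ cells Hhex had a log2 ratio of 0.03 (-0.11 to 0.17), Pdx1 of -0.04 (-0.31 to 0.23) and Isl1 of 0.01 (-0.08 to 0.11). None of the 7 members with at least 50 UMIs passed 1.5-fold, where 5.43% of 9386 genes were higher, 5.75% lower and 11.2% either. Irx1, with 19 and 7 UMIs, was under that minimum.

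In PP cells Nkx6-1 had a log2 ratio of 0.27 (0.03 to 0.51) and Isl1 of 0.01 (-0.13 to 0.15). Mafa (1.29, from 15 and 37 UMIs and not separated from background) and Hhex (-1.69, from 51 and 16 UMIs) were past 1.5-fold. That is 1 member higher and 1 lower of 8, where 5.39% of 8752 genes were higher, 3.51% lower and 8.9% either. Somatostatin UMIs in PP cells had a log2 ratio of -1.30. There were 353.0 Hhex UMIs per 100000 Sst UMIs in CD (262.8 to 464.1) and 269.2 in HFD (153.9 to 437.1), against 224.3 and 213.0 in δ cells. Empty barcodes held more, at 650.1 (378.7 to 1040.9) in CD and 464.3 (247.2 to 793.9) in HFD, from 17 and 13 Hhex UMIs.

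**Figure D3:**
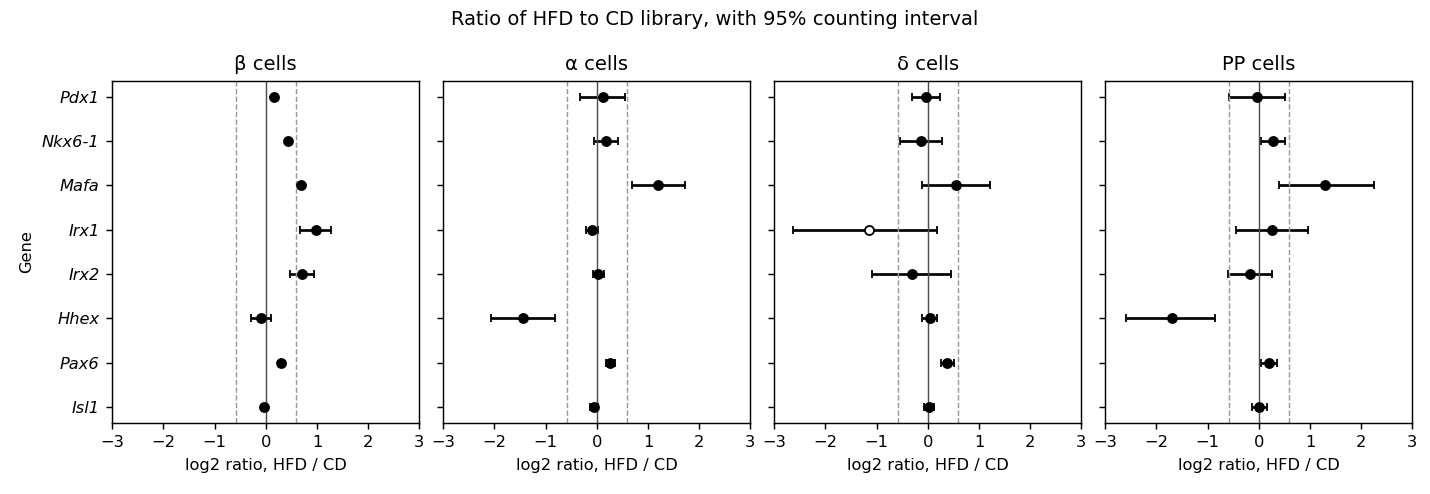
log2 ratio of the HFD to the CD library for each transcription factor (rows) in β, α, δ and PP cells (panels), with exact 95% counting intervals as bars. Solid lines mark 0, dashed lines 1.5-fold, and the open circle is Irx1 in δ cells, with fewer than 50 UMIs. Pax6 lies above 0 in every panel, Isl1 lies near 0 in every panel, and Mafa in β cells stands at 0.69.

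Within β cells the factors differed in how they varied with insulin content. Cells were split by insulin share, and levels were taken as CPM of the UMIs left after removing hormone and mitochondrially encoded genes, so that insulin itself does not enter the denominator. Mafa climbed with every step from 66.1 at 30% to 40% insulin through 145.8, 221.9 and 289.0 to 385.9 at 70% or more in CD, and from 180.4 through 225.7, 346.5 and 464.5 to 497.6 in HFD. At matched insulin share Mafa was higher in HFD in each of these 5 bins, by between 1.29-fold and 2.73-fold. The 5 bins held from 127 to 3692 cells in CD and from 114 to 4945 in HFD.

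Nkx6-1 went from 245.6 to 439.1 in CD across the same range, and in HFD from 327.5 to 541.7 at 60% to 70% and 491.7 above that. Pdx1 went from 91.3 to 163.8 in CD and from 80.6 to 141.3 in HFD, with HFD above CD in only the 3 middle bins. Isl1 showed no such climb, lying between 305.9 and 362.4 in CD and between 294.4 and 331.2 in HFD, and Pax6 lay between 375.7 and 409.7 in CD and between 423.5 and 511.0 in HFD. These are descriptions of cells within 1 library per diet, and depth also differs between the bins.

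**Figure D4:**
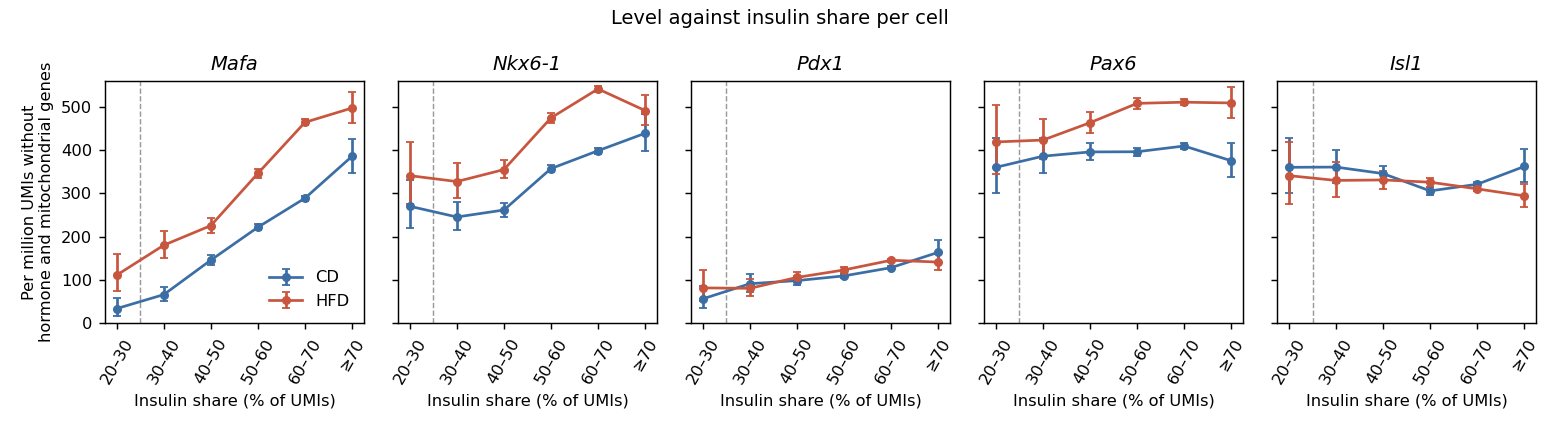
Level of Mafa, Nkx6-1, Pdx1, Pax6 and Isl1 (CPM of UMIs without hormone and mitochondrially encoded genes) against the insulin share of the cell in CD (blue) and HFD (red), with exact 95% counting intervals. The dashed line marks the 30% limit of the β class, and points to its left are cells outside it. Mafa climbs with insulin share in both libraries, from 66.1 to 385.9 in CD and from 180.4 to 497.6 in HFD, and Isl1 does not.

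Cells just outside a class limit carried less Mafa, Irx2 and Hhex by their point values, but not less Nkx6-1. Counting intervals outside and just inside the limit were apart for Irx2 and Hhex in CD. They overlapped for Mafa in both libraries and for Irx2 and Hhex in HFD. With an insulin share of 20% to 30% Mafa was at 33.8 in 37 CD cells and 111.3 in 47 HFD cells on the scale without hormone genes, against 66.1 and 180.4 just inside. Nkx6-1 was at 270.3 and 341.2 in those cells, against 245.6 and 327.5 just inside, and Pdx1 at 56.3 and 81.6, against 91.3 and 80.6. With a glucagon share of 5% to 10% Irx2 was at 55.9 in 23 CD cells and 103.7 in 53 HFD cells, against 151.5 and 154.6 just inside. With a somatostatin share of 1.5% to 3% Hhex was at 130.4 in 23 CD cells and 186.0 in 38 HFD cells, against 285.7 and 305.8 just inside, whereas Pdx1 was at 40.8 and 105.2, against 74.3 and 76.4.

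Single β cells varied more in Mafa than in the other members. Each cell was thinned to 10000 UMIs, leaving 5767 of 6515 cells in CD and 6861 of 7433 in HFD. The variance of Mafa UMIs per cell was 1.29 times its mean in CD and 1.49 times in HFD. Genes of like mean level had a median ratio of 1.04 and 1.06 and a 95th percentile of 1.18 and 1.27, so Mafa lay above both. Pdx1, Nkx6-1, Pax6 and Isl1 lay below the 95th percentile of their own like-mean genes in both libraries.

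At this depth 52.0% of CD β cells (50.7 to 53.3) and 41.0% of HFD β cells (39.9 to 42.2) had no Mafa UMI, and 0.520% and 2.03% had 5 or more. A UMI of Mafa was found without thinning in 72.5% of CD and 80.2% of HFD β cells, and at 3000 UMIs per cell in 18.1% and 27.7%, beside 3.85% and 3.54% of endothelial-like cells. All 3 of Pdx1, Nkx6-1 and Mafa were seen together in 9.59% of CD β cells (8.84 to 10.4) and 13.5% of HFD β cells (12.7 to 14.3), and none of them in 14.8% and 8.63%.

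**Figure D5:**
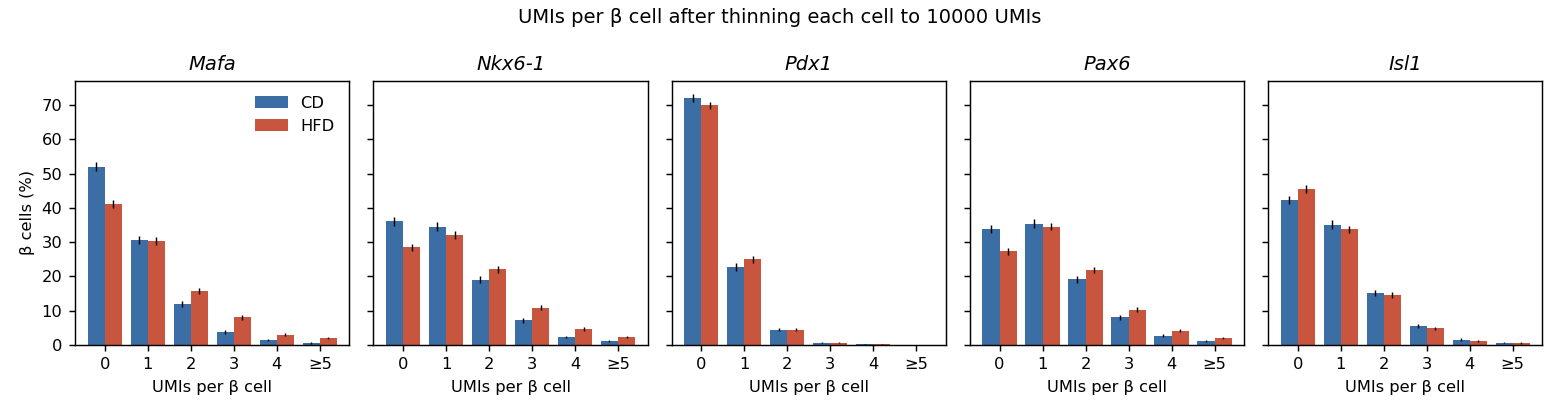
Percent of β cells (bars from 0, exact 95% counting intervals as lines) by number of UMIs of each factor after thinning every cell to 10000 UMIs, in CD (blue, 5767 cells) and HFD (red, 6861 cells). The share with no Mafa UMI is 52.0% in CD and 41.0% in HFD, whereas the Isl1 distributions lie close together.

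In α and δ cells detection was compared at the same depth. At 3000 UMIs a UMI of Irx2 was found in 24.3% of CD and 25.2% of HFD α cells, beside 0% and 0.295% of endothelial-like cells, and without thinning in 58.8% and 50.2%. Irx1 and Irx2 were seen together in 5.70% of CD α cells and 5.93% of HFD α cells. At the same depth Hhex was found in 48.8% of CD and 47.3% of HFD δ cells, beside 0.757% and 0.623% of β cells, and without thinning in 70.4% and 61.0%.

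β cells with a UMI of Aldh1a3, an aldehyde dehydrogenase described in dedifferentiating β cells, were 26 in CD and 374 in HFD. Mafa was lower in them, at 165.1 (129.2 to 208.0) against 257.8 in the other β cells of CD and 317.8 (299.1 to 337.5) against 426.9 in HFD, on the scale without hormone genes. Nkx6-1 was at 289.0 against 375.7 in CD and 494.5 against 511.8 in HFD, and Pax6 at 412.9 against 403.8 and 481.7 against 507.9. The cells with a UMI were deeper, with medians of 51599.5 against 26632 UMIs in CD and 28980.5 against 23865 in HFD, and the part of depth was not tested.

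Barcodes past the limits of 2 hormones, 144 in CD and 143 in HFD and outside all 4 classes, carried the factors of both. The 39 CD barcodes with glucagon and somatostatin held Irx2 at 111.5, Hhex at 133.7 and Mafa at 0, and the 27 HFD barcodes held 92.9, 154.9 and 0. The 19 CD barcodes with insulin and somatostatin held Mafa at 109.4 and Hhex at 99.5, and the 21 HFD barcodes 233.5 and 165.2. Barcodes with 2 cells and cells with 2 hormones cannot be told apart by these values.

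The genes whose levels followed a member most closely over the 8 class and library sums were found among 7612 genes by Pearson's r of log2(CPM + 1). The sums share 2 libraries and 4 classes, so r is a description. Pdx1 was followed by Insm1, an endocrine zinc finger factor (0.992), Clstn1 and Alg2. Mafa was followed by Sel1l, a component of endoplasmic reticulum protein degradation (0.997), Camkk2 and Tsga10, and Nkx6-1 by Tram1 (0.985), Slc35f5 and Bckdk. Irx1 was followed by the ribosomal protein genes Rpl6 (0.989), Rpl37 and Rpsa, and Irx2 by Sh3bp4 (0.990), Rps20 and Emc10. Pearson's r leaves out the size of a change. Irx1 was at 1.08 CPM in CD β cells and 75.3 in CD α cells, whereas Rpl6 was at 681.8 and 1391. Hhex was followed by Ly6h (0.998), Sst, which cuts the δ class, and Tagln3. Pax6 was followed by Naglu (0.974), Syngr1 and Rap1gap2, and Isl1 by Caly (0.992), Ctsh and Rapgef6. Among the members, Irx1 and Irx2 had an r of 0.98, and Hhex and Isl1 of 0.92.

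Of 42 other islet transcription factors, 31 had enough UMIs to compare classes. Mnx1 led in β cells (9.04 and 9.67 CPM), Neurog3, the endocrine progenitor factor, in δ cells (24.9 and 37.8) with Nr5a2 and Sox9 at low levels, and Nkx6-3 in PP cells (17.0 and 18.8).

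Between diets, 5 of 30 of these factors were past 1.5-fold higher in HFD β cells and 1 lower, with a median log2 ratio of 0.21 beside 0.02 over all genes, of which 9.19% were higher and 5.25% lower. The ETS factor Etv1 had the highest ratio (24.7 and 75.6 CPM, 1.62), followed by Sox9 (0.91, under 1 CPM in both) and Prox1 (0.67), and the lowest were Sox4 (-0.60), Myt1 (-0.40) and Rfx6 (-0.30). In α cells 1 of 28 was higher, Zfhx3 (0.63), and 0 were lower, against 6.36% and 3.45% of all genes. Rfx3 (0.54) and Etv1 (0.53) came next, and Pou3f4 (-0.40) and Sox4 (-0.29) were among the lowest. In δ cells 4 of 26 were higher, among them Foxo1 at 0.96 and Sox4 at 0.60, and 1 was lower, against 5.43% and 5.75% of all genes. Rfx6 (-0.12) and Fev (-0.11) were among the other low ratios. In PP cells 1 of 24 was higher, Zfhx3 (0.68), and 0 lower, against 5.39% and 3.51% of all genes. Sox4 (0.58) and Mafg (0.48) followed it, and the lowest were Myt1, Rfx6 and Insm1, all at -0.07.

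Of 20 known targets of the members, the hormone genes that cut the classes (Ins1, Ins2, Gcg and Sst) are left out here. Of the 15 others measured in β cells, 5 were past 1.5-fold higher in HFD and 2 lower, where 9.19% and 5.25% of all genes were. The highest were Gc (21.8 and 104.5 CPM, 2.26), the vitamin D binding protein, and Ttr (0.90), both known from α cells as well, and the lowest were Npy (-1.17) and Trpm5 (-0.72). In the other classes the highest were Ucn3 and G6pc2, which are β-cell genes, with Ucn3 at 1.502 in α, 1.73 in δ and 1.20 in PP cells, and G6pc2 at 1.05, 0.73 and 1.35. The 6 β markers summed to 30501 and 30788 CPM of the total in α cells, 77658 and 69842 in δ cells and 31963 and 34095 in PP cells, and their part in these ratios was not tested. The lowest were Trpm5 in α cells (-0.70), Sytl4 and Slc2a2 in δ cells (-0.83 and -0.68) and Iapp in PP cells (-0.52). In α cells 3 of 13 were higher and 1 lower, against 6.36% and 3.45% of all genes. In δ cells 2 of 12 were higher and 2 lower, against 5.43% and 5.75%. In PP cells 5 of 11 were higher and 0 lower, against 5.39% and 3.51%.

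Of 24 partners and cofactors of homeodomain proteins, 3 were past 1.5-fold higher in HFD β cells and 0 lower, against 9.19% and 5.25% of all genes. Ldb2 (1.89, from 26 and 90 UMIs) and the corepressor Tle4 (0.65) had the highest ratios, and Ssbp4 (-0.55) and the arginine methyltransferase Prmt1 (-0.51) the lowest. Ssbp4 (-0.57) and Prmt1 (-0.40) were lowest in α cells too, where Tle3 (0.68), the 1 of 23 past 1.5-fold (6.36% of all genes were higher), and Ncoa6 (0.51) were highest. In δ cells Tle4 (0.70) was highest and Ldb1, the cofactor of LIM-homeodomain proteins such as Isl1, lowest (15.8 and 8.92 CPM, -0.82) with Tle1 (-0.47), so that 1 of 22 was higher and 1 lower, against 5.43% and 5.75% of all genes. In PP cells Tle3 (0.91) and Lmo4 (0.52) were highest and Pbx2 (-0.41) and Prmt1 (-0.32) lowest, with 1 of 22 higher and 0 lower, against 5.39% and 3.51% of all genes.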

How the data were processed

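Droplet single-cell RNA sequencing was analysed for 2 libraries, CD and HFD, from the deposited matrices of raw UMI counts, which are not normalized. The authors used Cell Ranger 6.0.1 and mm10, per the submitters' processing notes, and software version 3.0.2 is given per the file headers. All possible barcodes are listed, so the authors deposited no selection of cells. UMIs totalled 265836346 in CD and 271527648 in HFD.

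Cells were barcodes with 1500 or more UMIs, 500 or more genes and a mitochondrially encoded share of 15% or less. Doublets were handled only by the hormone limits; removal by scrublet scores (scanpy 1.11.5) was an alternative. UMIs were summed per class and library, giving 8 sums, and scaled with TMM factors (edgeR 4.0.16, R 4.3.3). Ratios have exact conditional binomial 95% intervals, levels exact Poisson intervals and shares Clopper-Pearson intervals (scipy 1.17.1). A gene was tested between diets with at least 50 UMIs over both libraries and called past 1.5-fold. It was called between classes at 2-fold above every other class in both libraries. The calculation was tested on simulated data. Other scalings, cell weights, depths, filters, hormone limits and a subtraction of free RNA were tried as alternatives.

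Endothelial-like, macrophage-like and ductal-like cells were kept barcodes with no hormone past its limit. A share of at least 0.6 of that type's markers was detected in them, and at most 0.34 of any other type's. This scoring rule, the hormone-share bins, the Aldh1a3 groups and the cells with at least 8000 UMIs were chosen after seeing the data. Similar genes needed at least 50 UMIs and 10 CPM in at least 1 sum. The members and gene lists were chosen with earlier results of these data known. The members, in each list the highest and lowest ratios per class, the class-leading transcription factors and the 3 genes most like each member are named, except a few genes of these lists that are not reported here. GENCODE M21 (GRCm38) held 99.9% of the gene identifiers.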

Additional observations from a re-analysis of the deposited data

Results flagged for a closer look

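Among the members and the genes named from the 3 lists, leaving out the hormone genes that cut the classes, 5 had counting intervals on opposite sides of 0 in different classes. Each is a log2 ratio of HFD to CD from 1 library per diet, and the difference between classes was not tested. Sox4 was lower in HFD in β cells (-0.60) and α cells (-0.29) and higher in δ cells (0.60) and PP cells (0.58). Myt1 was lower in β cells (-0.40) and higher in α cells (0.44). Slc2a2 was lower in β (-0.0202), α (-0.36) and δ cells (-0.68) and higher in PP cells (0.85), from 46 and 84 UMIs. Tle1 was lower in δ cells (-0.47) and higher in β cells (0.12). Ttr was lower in PP cells (-0.0626) and higher in β (0.90), α (0.39) and δ cells (0.10).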

How the results depend on the processing

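No paired analysis was possible because each diet has 1 library and the groups share only 1 replicate number. Over 14 alternatives the ratio in β cells stayed above 0 for Mafa (0.62 to 0.81), Nkx6-1 (0.36 to 0.53), Pax6 (0.24 to 0.42) and Pdx1 (0.10 to 0.21). Reversals were Hhex in α cells (0.13 with tighter limits on the other hormones), Isl1 in β cells (0.00824 with every cell counted alike, 0.0459 with free RNA subtracted), and β over δ cells for Pdx1 (-0.88 in CD and -0.78 in HFD with total counts) and for Pax6 (in CD -1.21 with total counts, -0.00422 with every cell counted alike). In HFD, where the counting interval held a ratio of 1, the sign for Pax6 turned under 3 alternatives, as far as -1.38 with total counts. The count of members past 1.5-fold in β cells, 3, became 1 with every cell counted alike or thinned to 3000 UMIs, and 0 at 2-fold. In α cells 2 became 4 with free RNA subtracted. In δ cells 0 became 1 with totals without hormone and mitochondrially encoded genes, DESeq2 1.42.0 size factors, every cell counted alike, a mitochondrial limit of 25%, a higher own hormone limit or no UMI minimum, and 2 with doublet scores removed. In PP cells 2 became 0 with thinning, a higher own limit or lower limits for the other hormones, and 1 with doublet scores removed, free RNA subtracted or cells of at least 8000 UMIs. The cause of these moves was not tested. Free RNA shares rested on 5 genes in CD and 3 in HFD and ranged, for example, from 5.36% to 84.0% in CD α cells, so that subtraction is rough. The highest class was the same in both libraries for 7 or 8 of 8 members under every alternative. That count compares the libraries with each other and not with the main setting. Pdx1 and Pax6 therefore still count with total counts, where both were highest in δ cells in both libraries. Depth limits Irx1, Irx2 and Mafa in δ cells and Irx1, Mafa and Hhex in PP cells, each under 100 UMIs over both libraries.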
